A study of Homo sapiens with 7 samples.

Results

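Mutants that exchanged thymine for cytosine, or on the other strand adenine for guanine, were picked out of a reporter library by the reference and alternate base in each construct's name. They numbered 322 of 1025 mutant constructs (31.4%), and 322 of the 879 single-base substitutions (36.6%), which made them the largest of the 6 classes of base change in the table. The reference base on the plus strand was A in 180 of them and T in 142. They lay in 168 of the 376 regions that held any mutant.

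A transition swaps a base for the other base of the same ring class, so the pyrimidine thymine gives the pyrimidine cytosine and, in the paired strand, the purine adenine gives the purine guanine. This class turns an A:T pair into a G:C pair. In regulatory DNA such a change can alter a base that a transcription factor reads, and it can create a CpG dinucleotide, the site of DNA methylation in mammals. A reporter assay asks of each change whether the sequence that carries it drives more or less transcript than the sequence without it.

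The assay was a lentiviral massively parallel reporter assay (lentiMPRA) in C4-2B cells, an established human line of prostate cancer from the LNCaP lineage. Each candidate sequence integrates into the genome with a barcode, and the barcode is counted in RNA and in genomic DNA (gDNA), here from 3 RNA and 3 gDNA libraries taken 48 hours after transduction. All mutants and wild-type sequences were read in this 1 untreated line, outside their native loci, and no endogenous transcript was measured, so the line was not checked against marker genes. The authors' deposited mutant table gives each mutant 1 estimate against its wild-type sequence, read here as a natural log odds ratio, RNA over gDNA, with a z value, a p-value and an adjusted p.

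Values below are estimates ± the standard error that the estimate and its z value imply, and a fold is a fold of odds. A mutant is called higher or lower than wild-type at an adjusted p under 0.05 in that table. The deposited table holds no replicate, read or barcode values: the depth of an estimate is unknown, and no spread between libraries can be given. Regions are named by the protein-coding gene they overlap or lie nearest to, in hg38 coordinates, which does not say that the region controls that gene. No position or sequence of a single mutation is printed.

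The region over the start of TRERF1, the gene of a zinc finger regulator of steroidogenic transcription, is the one place where tested T-to-C or A-to-G sites fell inside a promoter sequence of the RefSeq table used here, so its promoter stretch is shown (chr6:42452052-42452336). It held 2 such mutants, both within 50 bases before the annotated start of the gene. The 112 bases of GRCh38.p14 below, on the minus strand at chr6:42452225-42452336, end at the base before that start, and the capitals mark a match to the GC box letters GGGCGG, here on the other strand.

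TRERF1: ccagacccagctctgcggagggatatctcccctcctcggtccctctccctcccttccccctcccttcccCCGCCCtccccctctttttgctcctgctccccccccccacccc

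Both strands were searched for 5 motifs that do not overlap each other in this stretch. The GC box was matched 1 time. The letters TATAAA of the TATA box, the letters CCAAT, the letters CGGAAG of the ETS core and the letters TGACGTCA of the cyclic AMP response element had 0 matches. Of 34796 promoter windows of the same length, 32.9% held the GC box letters, 5.38% the TATA box, 19.5% CCAAT, 10.6% the ETS core and 1.24% the cyclic AMP response element. In this stretch the authors' deposited mutant table put 1 of the mutants at 0.17 ± 0.04, or 1.18-fold higher odds than wild-type, and called it higher (adjusted p = 0.000245). The other TRERF1 mutant stood at -0.03 ± 0.04 in the authors' deposited mutant table and was not called (adjusted p = 0.583). The sites of this pair are 21 bases apart.

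Of the 322 T-to-C or A-to-G mutants, 185 (57.5%) were called in the authors' deposited mutant table, 99 higher and 86 lower, and 137 were not. Over all 1025 mutants 56.6% were called, 29.5% higher and 27.1% lower, and over the 557 other single-base substitutions 55.8% were called, 29.3% higher and 26.6% lower. The share of T-to-C or A-to-G mutants called therefore lay near that of the other substitutions, and the exact 95% binomial interval of the first, 51.9 to 62.9%, holds the second. That interval treats mutants as independent, which those of 1 region are not. Among calls, 53.5% were higher in the T-to-C or A-to-G class and 52.4% in the other substitutions.

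The median size of an estimate in the authors' deposited mutant table was 0.32 (quartiles 0.15 and 0.65), or 1.37-fold, for T-to-C or A-to-G mutants, and 0.29 (quartiles 0.13 and 0.63), or 1.34-fold, for other substitutions. The median signed estimate in the authors' deposited mutant table was 0.03 in this class and 0.02 in the others. Among called mutants the median size was 0.52, or 1.68-fold, in the class against 0.53, or 1.70-fold, in the other substitutions, in the authors' deposited mutant table. Calls of at least 2-fold made up 20.2% of the class, 19.9% of the other substitutions and 20.9% of all mutants, and calls of at least 4-fold 5.90% of the class and 5.39% of the other substitutions. The spread of estimates within 10 in size had an SD of 0.72 over T-to-C or A-to-G mutants and 0.68 over the others in the authors' deposited mutant table.

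Set beside each other class, C-to-T transitions, the reverse change, had 55.3% of 208 mutants called and a median size of 0.31 in the authors' deposited mutant table. T-to-G transversions, which start from the same base, had 55.3% of 141 called and a median size of 0.24, and the median standard error was 0.12 in the T-to-C class against 0.09 in T-to-G mutants. In T-to-G mutants 14.2% were called at 2-fold or more. C-to-A changes had a median size of 0.38 in the authors' deposited mutant table with 55.4% of 74 called, C-to-G changes 0.31 with 59.7% of 77, and T-to-A changes 0.33 with 54.4% of 57. The T-to-C class, with 57.5% called, lay within the range of the 6 classes of substitution, 54.4 to 59.7%, and the 146 insertions and deletions stood at 57.5% with a median size of 0.35.

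The median error of T-to-C or A-to-G mutants was 0.12 (quartiles 0.08 and 0.19) in the authors' deposited mutant table, as against 0.12 (quartiles 0.08 and 0.20) in other substitutions. Of the 15 T-to-C or A-to-G mutants with an error under 0.05, 66.7% were called, at a median size of all 15 of 0.09. At errors of 0.05 to 0.1 there were 106, of which 53.8% were called, and their median size was 0.18. At errors of 0.1 to 0.2 there were 136, of which 60.3% were called, and their median size was 0.42. At errors of 0.2 to 0.5 the 51 mutants had a median size of 0.70, and 54.9% were called, as were 8 of the 14 with larger errors. The share called in the class thus had no steady order over the error. In other substitutions it fell over the same ranges, at 63.6, 58.4, 54.3, 51.6 and 50%, and this difference was not tested. Estimates beyond 10 in size belonged to 6 mutants of the class in the authors' deposited mutant table, none of which was called, and the smallest standard error among them was 618. The z values of the class had a robust SD of 4.05, against 3.89 in the other substitutions, where a value of about 1 would be the model's own error alone. This SD was taken over the mutants themselves, so true effects raise it, as does error beyond the model's. Their parts were not told apart, so scaling by it does not correct for error alone. With every z divided by the robust SD of the whole table, 3.92, the same adjustment called 0 T-to-C or A-to-G mutants. Of the class, 12 were then at an unadjusted p under 0.05, as against 195 before scaling. The same scaling left 1 call in the 557 other substitutions and 2 in all 1025 mutants. At an unadjusted p under 0.05 it left 34 and 52 of these. Bonferroni adjustment left 96 calls, or 29.8%, as against 29.8% in other substitutions and 29.9% in all mutants.

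Each region with calls was represented by its called mutant of smallest p, and the 10 highest and 10 lowest estimates among these representatives are named. The highest, which was also the highest called estimate of the whole class, was inside FCHSD2, an endocytosis gene, at 3.34 ± 0.68, or 28.2-fold, in the authors' deposited mutant table (chr11:72884513-72892993, adjusted p = 5.23e-06). A mutant inside GALNS, which encodes a lysosomal sulfatase, stood at 1.56 ± 0.11, or 4.77-fold, in the authors' deposited mutant table, and had the smallest p of any T-to-C or A-to-G mutant called higher (chr16:88828942-88829161, adjusted p = 1.11e-40). It was the 1 member of its class in a region of 4 mutants. A mutant inside SOD1, the gene of copper-zinc superoxide dismutase, reached 1.59 ± 0.23, or 4.91-fold, in the authors' deposited mutant table (chr21:31661261-31664301, adjusted p = 1.11e-10). The other SOD1 mutants of the class, at 0.17 ± 0.12 and -0.11 ± 0.17 in the authors' deposited mutant table, were not called. Inside NETO2, which encodes an auxiliary subunit of kainate receptors, a mutant stood at 1.17 ± 0.22, or 3.24-fold, in the authors' deposited mutant table (chr16:47077704-47079633, adjusted p = 5.28e-07). The others of the 10 chosen as highest lay at NOM1, ZNF577, PMP22, OPCML, ZNF276 and OBSL1, between 2.04 and 2.89 in the authors' deposited mutant table. Their errors ran from 0.36 to 0.68, against a median of 0.12 in the class. A ranking by estimate favours mutants with large errors. Of the 10, 8 kept the call with Bonferroni adjustment, which ended those at PMP22 and OPCML. This choice passed over 4 called estimates above that of the NETO2 mutant, whose regions were represented by another mutant with a smaller p. They were those near ADGRB1 at 2.42 ± 0.54, near INCENP at 1.57 ± 0.30, inside the hyaluronidase gene HYAL1 at 1.35 ± 0.47 and inside the zinc finger gene ZNF544 at 1.25 ± 0.37 in the authors' deposited mutant table.

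The wild-type counterpart of some of these was also measured against scrambled sequence. Of the 10 chosen as highest, 4 had a wild-type construct of the same name, and the call was lower than scrambled for all 4 of these in the authors' deposited wild-type table, where 28.2% of all 358 wild-type constructs were. NETO2, 1 of these 4, would not be among them if the highest called estimate stood for each region. At ZNF577, a zinc finger gene, the mutant stood at 2.87 ± 0.61 against wild-type, and that wild-type at -2.79 ± 0.55 against scrambled sequence, in the authors' 2 deposited tables (chr19:51860243-51863236). At PMP22, a myelin gene, the values in the authors' 2 deposited tables were 2.36 ± 0.68 for the mutant and -2.83 ± 0.65 for the wild-type sequence. At ZNF276 they were 2.06 ± 0.36 and -1.96 ± 0.34, and at NETO2 1.17 ± 0.22 and -0.58 ± 0.24, in the authors' 2 deposited tables. Each such pair of estimates rests on the same wild-type reads, if the names mean the same construct, so that an error in those reads moves both in opposite directions, and no relation between the tables is drawn from them.

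At the other end, the lowest called estimate of the class lay 448 bp from the nuclear pore gene NUP85, at -2.97 ± 0.53, or 19.4-fold below wild-type, in the authors' deposited mutant table (chr17:75204248-75205231, adjusted p = 1.73e-07). A mutant inside ZNF556, a zinc finger gene, stood at -2.44 ± 0.49, or 11.5-fold below wild-type, in the authors' deposited mutant table, and the deposited wild-type table put its wild-type sequence at -0.14 ± 0.08 against scrambled, not called (chr19:2867418-2868713, adjusted p of the mutant 3.4e-06). A mutant 1599 bp from MYADM, a myeloid-associated membrane protein gene, stood at -1.59 ± 0.15, or 4.90-fold below wild-type, in the authors' deposited mutant table (chr19:53863178-53864029, adjusted p = 1.06e-23). It was the sole mutant of its region.

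The smallest p of all T-to-C or A-to-G mutants belonged to one 299 bp from MCPH1, the microcephalin gene, at -1.57 ± 0.11, or 4.81-fold below wild-type, in the authors' deposited mutant table (chr8:6648807-6650052, adjusted p = 1.83e-43). Its wild-type sequence was called higher than scrambled at 2.16 ± 0.28 in the authors' deposited wild-type table. Here and at ZNF556 both estimates rest on the same wild-type reads, if the names mean the same construct. No relation between the tables is drawn from them. A mutant 4458 bp from DPF2, a subunit gene of the BAF chromatin remodelling complex, stood at -1.47 ± 0.24, or 4.36-fold below wild-type, in the authors' deposited mutant table (chr11:65328868-65329394, adjusted p = 1.24e-08). The other DPF2 mutant of the class was also called lower, at -0.61 ± 0.15. A mutant 370 bp from SYNGR2, a synaptogyrin gene, stood at -1.11 ± 0.19 in the authors' deposited mutant table (chr17:78167935-78168175, adjusted p = 3.18e-08). Calls at ATL3, which encodes an atlastin of the endoplasmic reticulum, at THOC2, a subunit gene of the mRNA export complex THO, and near LOC124901483 stood at -1.68 ± 0.63, -1.20 ± 0.42 and -1.40 ± 0.40 in the authors' deposited mutant table, and Bonferroni adjustment ended all 3. The last of the 10 chosen as lowest was inside TPCN2, at -2.29 ± 0.33. The choice passed over 2 called estimates below those at THOC2 and SYNGR2, near BDH1 at -1.31 ± 0.39 and inside KLC4 at -1.22 ± 0.21 in the authors' deposited mutant table.

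Several of the mutants with the smallest p in each direction had effects of moderate size. In the higher direction, a mutant inside C2, a complement component gene, stood at 1.01 ± 0.10, or 2.75-fold, in the authors' deposited mutant table (chr6:31922725-31925687, adjusted p = 8.71e-24), and one inside SKAP1, a T-cell adaptor gene, at 0.83 ± 0.09, or 2.28-fold (adjusted p = 2.94e-19). A mutant inside PLCH2, a phospholipase C gene, stood at 0.52 ± 0.06, or 1.68-fold, in the authors' deposited mutant table (chr1:2491438-2492298, adjusted p = 1.42e-14). A mutant 1865 bp from HNRNPR, an RNA-binding protein gene, stood at 1.12 ± 0.13, or 3.06-fold, in the authors' deposited mutant table (chr1:23346149-23349256, adjusted p = 2.74e-15). In the lower direction, a mutant inside IQCK stood at -1.07 ± 0.10, or 2.91-fold below wild-type, in the authors' deposited mutant table (chr16:19853832-19854690, adjusted p = 1.42e-24). A mutant inside KLC4, a kinesin light chain gene, stood at -0.96 ± 0.10, or 2.61-fold below wild-type, in the authors' deposited mutant table (chr6:43067399-43069397, adjusted p = 1.43e-19).

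Among mutants of the class that were not called, the 5 with the smallest errors gave the narrowest limits on an effect. In the authors' deposited mutant table they stood at 0.04 ± 0.03 inside UBASH3A, -0.03 ± 0.04 at TRERF1, 0.05 ± 0.05 inside NDRG1, and 0.07 ± 0.04 and -0.09 ± 0.05 in a region 97478 bp from SOX1, the gene of a neural transcription factor (chr13:112169184-112169414). Their folds ran from 1.03 to 1.09 in either direction. An uncalled mutant with so small an error cannot lie far from wild-type, so these small folds follow from the choice. The adjusted p of these 5 lay between 0.0986 and 0.583 in the authors' deposited mutant table, which does not show that they had no effect.

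The mutants were unevenly spread over regions. In 87 regions there was 1 T-to-C or A-to-G mutant, in 81 there were 2 or more, together 235, and 6 regions held 5 or more. Calls lay in 115 regions, of which 48 held higher calls of the class only, 38 lower calls only and 29 both. Of the 45 regions with at least 2 calls of the class, 29 (64.4%) held both directions, 9 higher only and 7 lower only. For the other substitutions, 39 of 76 such regions (51.3%) held both directions, a difference that was not tested, and the number of calls per region differed between the sets.

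The region with the most members was inside CHLSN (chr7:1006309-1006805), where 9 sites spanned 435 bases. From one end of the region to the other, the first 5 of its mutants stood at -0.47 ± 0.16, -0.89 ± 0.10, 0.09 ± 0.04, -0.01 ± 0.05 and 0.57 ± 0.13 in the authors' deposited mutant table. The next 3 stood at 0.03 ± 0.08, -0.17 ± 0.09 and -0.66 ± 0.14, and the last had an estimate beyond 10 in size with no usable error. Of the 9, 2 were called higher, 3 lower and 4 neither, so the direction of the calls changed back and forth along the sequence. The region over an end of NWD1, a NACHT and WD repeat gene, had 7 members, of which 2 were called higher, 2 lower and 3 neither, from -0.98 ± 0.20 to 0.66 ± 0.09 in the authors' deposited mutant table (chr19:16717675-16719978). Its 6 other substitutions gave 2 higher and 3 lower calls there.

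Other regions of 4 or 5 members also held calls of both directions. Inside NETO2 3 mutants were called higher, at 0.37 ± 0.11, 1.02 ± 0.20 and 1.17 ± 0.22, and 1 lower, at -0.70 ± 0.14, in the authors' deposited mutant table. Inside BRD1, which encodes a bromodomain scaffold of histone acetyltransferase complexes, 3 were called higher, at 0.36 ± 0.12, 0.35 ± 0.09 and 0.38 ± 0.08, and 1 lower, at -0.63 ± 0.14, in the authors' deposited mutant table (chr22:49784074-49784573). In a region 42462 bp from INCENP, a gene of the chromosomal passenger complex, 2 were called lower, at -0.65 ± 0.12 and -0.67 ± 0.15, and 1 higher, at 1.57 ± 0.30, in the authors' deposited mutant table, with all 5 sites within 83 bases (chr11:62077494-62081549). In a region 18706 bp from ADGRB1, an adhesion receptor gene, calls stood at 0.47 ± 0.07, 2.42 ± 0.54 and -0.51 ± 0.11 in the authors' deposited mutant table (chr8:142563713-142564312). A region 2062 bp from EP300, a histone acetyltransferase gene, had all 4 of its members called, 2 higher at 0.20 ± 0.06 and 0.33 ± 0.09 and 2 lower at -0.17 ± 0.06 and -0.26 ± 0.07, in the authors' deposited mutant table. Bonferroni adjustment ended all 4 EP300 calls, the NETO2 call at 0.37 and the BRD1 calls at 0.36 and 0.35.

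In all, 18 regions had 3 or more T-to-C or A-to-G calls, and 16 of them held both directions, with 31 higher and 30 lower calls among 77 members. As 53.5% of all calls of the class were higher, calls falling independently would also put both directions in most such regions. The count for other substitutions is not given here. Regions with 1 direction only were inside RHBG, an ammonium transporter gene, and inside PTPRN2, a gene of a dense-core vesicle protein. The 3 RHBG members were all called lower, at -0.72 ± 0.20, -0.44 ± 0.12 and -0.73 ± 0.27, in the authors' deposited mutant table (chr1:156383227-156384845). Bonferroni adjustment ended all 3 of these calls. The 3 PTPRN2 members were all called higher in the authors' deposited mutant table, at 0.35 ± 0.07, 0.10 ± 0.03 and 0.09 ± 0.04 (chr7:157854875-157855107). Only the call at 0.35 was kept with Bonferroni adjustment. Members of the remaining such regions, at PLCH2, DIP2C, CHMP4B, MCCC1, BDH1, ADAMTS2, EXOC2, C2 and KLC4, ranged from -1.31 to 1.03 in the authors' deposited mutant table.

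The class had 15 pairs of sites at most 10 bases apart in the same region, a distance chosen after values were seen. Both mutants were called in 3 of these pairs, 1 in the same and 2 in opposite directions. Another 11 pairs had 1 call and 1 pair had none. The 15 pairs came from 13 regions, and 57.5% of the whole class was called. Whether calls at near sites differ from those of the class was not tested. Inside C2, mutants 10 bases apart stood at -0.59 ± 0.12, called lower, and 1.01 ± 0.10, called higher, in the authors' deposited mutant table. Near COX7B, a subunit gene of cytochrome c oxidase, mutants 7 bases apart stood at 0.83 ± 0.12, called higher, and -0.03 ± 0.22, not called, in the authors' deposited mutant table (chrX:77898763-77899434). Near FAM167B the pair 8 bases apart was called higher at both sites, at 0.48 ± 0.14 and 0.56 ± 0.09, with an uncalled mutant between them at 0.19 ± 0.15, in the authors' deposited mutant table (chr1:32242892-32246238).

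The median gap between the estimates of such a pair was 0.47 in the authors' deposited mutant table, against a median standard error of the gap of 0.17. That error leaves out any shared wild-type reads and any error beyond the model's, so it may be too small or too large. At larger distances the median gaps were 0.44 for the 80 pairs 11 to 50 bases apart, 0.47 for 82 pairs 51 to 200 bases apart and 0.44 for 107 pairs beyond that. Among the pairs 11 to 50 bases apart, both were called in 27, of which 12 had the same direction. At 51 to 200 bases both were called in 35, of which 15 had the same direction. Beyond that both were called in 38, of which 18 had the same direction. Inside TPCN2, an endolysosomal channel gene, mutants 15 bases apart stood at -2.29 ± 0.33 and 0.48 ± 0.10, both called, in the authors' deposited mutant table (chr11:69083084-69083175). Inside KLC4 mutants 12 bases apart stood at -1.22 ± 0.21 and 0.93 ± 0.28, both called, in the authors' deposited mutant table.

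At 2 positions of the class another mutant was named by the same position. Near IL3RA, the gene of an interleukin-3 receptor subunit, the A-to-G mutant stood at 0.14 ± 0.12 and was not called, while the A-to-C mutant of the same base was called lower at -1.32 ± 0.08, in the authors' deposited mutant table (chrX:1334602-1336399, adjusted p = 0.330 and 1.89e-56). In the ADGRB1 region an A-to-G mutant at -0.03 ± 0.06 was not called, while a deletion named by the same position was called lower at -0.40 ± 0.07, in the authors' deposited mutant table (adjusted p = 0.638 and 1.51e-08). That deletion need not remove the base that the A-to-G mutant changed.

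Sites of 1 region can lie far apart, over 3202 bases in a TDRD9 region, and construct length is not given. Mutants of 1 region therefore need not share their surrounding sequence. Both T-to-C or A-to-G mutants and other substitutions were held by 121 regions. There 140 of 249 mutants of the class (56.2%) and 182 of 307 other substitutions (59.3%) were called, with median sizes of 0.29 and 0.31 in the authors' deposited mutant table. The median of the class lay above that of the other substitutions in 58 of these regions and below it in 63.

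With A as the plus-strand reference base, 52 of 180 were called higher and 53 lower, and with T, 47 of 142 higher and 33 lower. The median size was 0.29 with A and 0.36 with T, and the median standard error 0.11 and 0.14, in the authors' deposited mutant table. Read on the coding strand of the gene they lie in, 82 mutants changed A and 67 changed T, among the 149 of 193 in or over genes where the strand was known and single, and 63.4% and 67.2% of these were called. Of the 172 inside a gene 62.8% were called, of the 129 between genes 51.9%, and of the 21 in regions over a gene end 47.6%. For other substitutions these shares were 58.9% of 280, 51.8% of 257 and 65.0% of 20.

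Within 1000 bases of an annotated start of a protein-coding gene there were 13 mutants of the class, of which 8 were called, at a median size of all 13 of 0.17. From 1000 to 10000 bases there were 113 with 55.8% called, from 10000 to 100000 there were 138 with 62.3% called, and beyond that 49 with 49.0% called. The median sizes in these 3 ranges were 0.31, 0.36 and 0.24 in the authors' deposited mutant table. Other substitutions had 20 of 40 called within 1000 bases, then 55.1% of 147, 55.3% of 237 and 60.8% of 102, so their order differed. The 9 mutants on chromosome 8 were not placed, since no start table for it was used here. Of 20056 protein-coding genes 15843 had a start, taken once per gene, so nearer starts may have been missed elsewhere too. In regions shorter than 500 bases 48.3% of 87 mutants of the class were called, as were 60.5% of 76 from 500 to 1000, 63.3% of 90 from 1000 to 2000 and 58.0% of 69 in longer ones. For other substitutions the same shares were 59.2, 52.9 and 58.5%, with 61 of 122 called in the longest regions, so that the order over lengths was not the same. None of these differences was tested, because mutants of 1 region are not independent.

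The activity of the wild-type sequences themselves was read against scrambled sequence. A wild-type construct of the same name was listed for 120 of the 322, in 60 regions, and 76 of these (63.3%) were called against scrambled sequence in the authors' deposited wild-type table, 39 higher and 37 lower. Over all 358 wild-type constructs 62.3% were called, and over the 171 that belonged to other substitutions 64.9%. Their median size was 0.32 for wild-type constructs of the class and 0.34 for those of other substitutions in the authors' deposited wild-type table.

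Loci were also grouped by 7 lists of genes, chosen with earlier results of these data known. That every list had members is therefore no result. The lists held 5 to 15 genes, of which 1 or 2 per list had members. At the splicing genes SF3A1 and HNRNPC, 7 mutants of the class gave 2 higher calls and 0 lower ones in the authors' deposited mutant table, with a median estimate of 0.19. The 3 HNRNPC members stood at -0.42 ± 0.24, 0.07 ± 0.06 and 0.40 ± 0.41, none called, so that the calls in the HNRNPC region came from other kinds of change. The class held 4 of the 5 SF3A1 mutants of the authors' deposited mutant table, from -0.03 ± 0.09 to 0.28 ± 0.09, 2 of them called higher.

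At the autophagy and lysosome genes TECPR2 and TPCN2, all 4 members were called in the authors' deposited mutant table, 2 higher and 2 lower. TECPR2, an autophagy gene, had mutants at 0.99 ± 0.18 and -0.30 ± 0.07 in the authors' deposited mutant table (chr14:102444317-102446357). At the tight junction genes F11R and CGN all 4 members were called, 3 lower and 1 higher. Those near F11R, which encodes a junctional adhesion molecule, stood at -0.55 ± 0.07 and -0.30 ± 0.05, and those inside CGN, the cingulin gene, at -0.94 ± 0.19 and 0.49 ± 0.06, in the authors' deposited mutant table.

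At the genome maintenance genes, the MCPH1 mutant above and 1 inside TIMELESS at -0.67 ± 0.22 were both called lower in the authors' deposited mutant table, and Bonferroni adjustment ended the TIMELESS call. At the T-cell genes, the SKAP1 mutant above and 1 of 2 inside UBASH3A, at 0.17 ± 0.06, were called higher in the authors' deposited mutant table. Near NRARP, a feedback inhibitor of Notch signalling, 1 of 3 was called higher at 0.36 ± 0.12, and inside the androgen-responsive gene NDRG1 neither of the 2, at 0.05 ± 0.05 and -0.13 ± 0.08, was called, in the authors' deposited mutant table. Lists of 2 to 7 mutants allow no statement about a list as a whole beside the 56.6% called over all mutants.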

How the data were processed

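Candidate sequences were cloned with barcodes, transduced into C4-2B cells, and read as 3 gDNA and 3 RNA libraries, per the labels' protocols; 1 further library linked barcodes to sequences. Per the submitters' processing notes, Bowtie2 and the build hg38 were used; for what, and which barcode filters, construct length and model form, is not given in the sources used here.

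Per the file headers, the deposited estimate comes from a logit model and is taken as a natural log odds ratio. The z value, a score, and the authors' p-value and q-value were deposited too, for each of 1025 mutant and 358 wild-type constructs. Recomputed from z, the p-value was its two-sided normal p and the q-value that p after Benjamini-Hochberg adjustment over the whole table. The direction was read from the tables' names, a positive value standing for more RNA over gDNA in the mutant than in wild-type, or in wild-type than in scrambled sequence. The standard error is the estimate divided by z.

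Python 3.11.15 with pandas 2.3.3, numpy 2.4.6 and scipy 1.17.1 was used, and the calls were tested on simulated data. Changes were read from the last 2 fields of each construct's name. Of the 12 substitutions inside a promoter window of the RefSeq table, 12 had the named reference base. Genes were named from 20056 protein-coding genes of GRCh38.p14, and 15843 of them had a strand. No genome sequence was used, so neighbouring bases and CpG changes were not analysed here. Classes are compared by counts and medians without a test, since mutants are not replicates. The rule for named mutants took, among the called mutants with the smallest p of their regions, the 10 highest and 10 lowest estimates, and, with no limit per region, the 5 smallest p in each direction, the 5 uncalled mutants with the smallest error, all members of regions with 3 or more calls, and members at 7 gene lists. The FAM167B, COX7B, SOD1 and DPF2 neighbours, the pairs by distance, the IL3RA mutants at one base and the HYAL1 and ZNF544 mutants were added after their values were seen. Members, lists and rules were chosen with earlier results of these data known.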

Additional observations from a re-analysis of the deposited data

How the results depend on the processing

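The deposited tables gave 1 value per construct, so no replicate could be left out. No paired analysis was possible because the tables hold no values per replicate. Of the 185 calls in the T-to-C or A-to-G class (99 higher, 86 lower), Bonferroni adjustment left 96 (53 higher, 43 lower). Dividing z by its robust SD, which true effects also raise, left 0 (0 higher, 0 lower), and a floor of 1.5-fold left 118 (61 higher, 57 lower). In other substitutions the scaling left 1 call, and the floor left 34.3% of them called, against 36.6% of the class. With 1 mutant per region, which leaves 168 mutants, 97 were called (47 higher, 50 lower), so higher calls no longer outnumbered lower ones. The median size was 0.26 among mutants with a standard error under 0.2, against 0.32 over all. Of the 76 calls among wild-type constructs of the class, Bonferroni adjustment left 43 and dividing z by its robust SD left 1. Of the 223 calls over all 358 wild-type constructs they left 120 and 4. An adjusted p under 0.01 or a standard error under 0.2 kept each count of calls within 1.5 times. Of the 95 called mutants named by rule, 60 were called after Bonferroni adjustment and 0 with z divided by its robust SD. The depth per construct is unknown, so what it limits could not be measured.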
